A study of Danio rerio with 20 samples.

Results

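Tumor 12.2 was 1 of 3 zebrafish leukemias labelled low in self-renewal, and it carried transcripts of T cells and of B cells side by side. It was set against the other low tumors, 9.2 and 10.2, which carried mainly B-cell transcripts. The comparison used 6 of the 20 libraries of the series and 3 of its 11 tumors, chosen by their names, and tumor 12.2 had been singled out because earlier measurements of these same libraries showed both kinds of transcripts. Its differences from tumors 9.2 and 10.2 are therefore a description, and no test or p-value is attached to them.

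In lymphocyte development, T cells and B cells arise from shared progenitors and then express separate gene programs. T cells use a T-cell receptor with the coreceptors CD4 and CD8 and the kinase LCK, under regulators such as GATA3 and TCF7. B cells use an immunoglobulin receptor with the signalling chains CD79A and CD79B, under PAX5 and EBF1, and acute lymphoblastic leukemias usually keep 1 of these programs.

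Bulk polyA RNA of leukemia cells was sequenced on an Illumina instrument. All 11 tumors were grown in the CG1 strain of zebrafish and are labelled as blood. The 8 high tumors (14 libraries) and the 3 low tumors (6 libraries) differ in the label for self-renewal capacity, and the low tumors each had libraries numbered 1 and 2 (A and B). The sources used here do not give the driver gene, the age or the sex of the fish, and the labels name no lineage. The design text of the series calls paired libraries biological replicates, without saying whether they came from separate fish, and it counts 6 high and 5 low tumors where the labels used here give 8 and 3.

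Libraries held 6015050 to 16951341 counts in all, with the fewest in 12.2B, and the summed totals were 27432733 for tumor 9.2, 28727277 for 10.2 and 16129049 for 12.2. The libraries of tumor 12.2 differed from each other with a chi-square per degree of freedom over genes of 31.3, against 1.31 in tumor 9.2, 4.14 in 10.2 and at most 13.1 in the high tumors with 2 libraries. The share of genes within 2-fold of each other was 94.1% in 12.2, 98.7% in 9.2 and 98.3% in 10.2, and a high tumor, 13.1.1, had a lower share of 93.7%. Library 12.2B held more of the small noncoding RNAs rn7sl1 (log2 CPM 9.39 against 6.79 in 12.2A) and rmrp (6.54 against 4.81). It also held more of the short ribosomal protein gene RPL38 (ENSDARG00000006413, 9.72 against 8.61), and these genes were chosen after their values were seen. Results that change when either library is left out are given as such. CPM values, read counts scaled to a common library total, use TMM factors, and log2 CPM has a prior count of 2.

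Markers of both lineages were present in tumor 12.2. All 10 measured T-lineage markers stood above 1 CPM in it, against 4 in tumor 9.2 and 7 in 10.2, with a summed level of 895 CPM beside 31.0, 309 and, in the high tumors, 3340 to 4064 (median 3628). Of 10 B-lineage markers, 7 stood above 1 CPM in tumor 12.2 and 8 in each of 9.2 and 10.2, with summed levels of 267, 1370 and 788 CPM beside 4.01 to 17.2 (median 8.53) in the high tumors. The sums of 12.2 lay between those of the high tumors and those of 9.2 and 10.2 in both cases. Most of its B-lineage sum came from PAX5 (131 CPM) and an EBF1 paralogue (110 CPM). The markers ighm (1.23 CPM) and blnk (1.05 CPM) only just passed 1 CPM in 12.2 and lay within the range of the high tumors. In bulk RNA, fewer cells of a type and less RNA per cell cannot be told apart, and neither can cells that carry both programs and a mixture of cells that carry 1 each.

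Across the genome, 13465 genes had a mean of at least 1 CPM over the 3 low tumors. A gene was called where tumor 12.2 lay at least 4-fold beyond the nearer of tumors 9.2 and 10.2 and both its libraries lay beyond all 4 libraries of the others. By this rule 425 genes (3.16%) were higher and 312 (2.32%) lower in tumor 12.2. The same rule gave 205 higher (1.52%) and 634 lower genes (4.71%) in tumor 9.2, and 196 (1.46%) and 118 (0.876%) in tumor 10.2. Tumor 12.2 thus held the most genes above the other low tumors, and tumor 9.2 the most below them. Genes near zero in 9.2 and 10.2 pass the minimum through 12.2 alone and can then only be called higher. Shares of called genes, in the lists too, thus describe the genes that passed and not whole lists. The same holds for median differences of lists and for counts of members above or below both tumors. Of the 425 higher genes, 78 (18.4%) lay below the range of the high tumors, 194 (45.6%) within it and 153 (36%) above it. Of the 312 lower genes the counts were 98 (31.4%), 178 (57.1%) and 36 (11.5%). These places were not counted over all 13465 genes, so they describe the called genes only. Without library 12.2A the counts for tumor 12.2 were 360 and 423, and without 12.2B they were 425 and 333.

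Pairwise, 9.77% of genes lay 4-fold or more apart between tumors 9.2 and 10.2, 13.7% between 9.2 and 12.2, and 8.65% between 10.2 and 12.2. Spearman's rho over genes was 0.89, 0.84 and 0.89, which describes genes within these tumors and not replicates. By both measures tumor 12.2 was at least as near to 10.2 as 9.2 was. Leaving out tumor 10.2 raised the higher and lower counts of 12.2 to 1177 and 666, and leaving out 9.2 gave 595 and 569. At the limit of the rule, NDRG4 (ENSDARG00000103937) was called with a distance of 2.002 on the log2 scale and MAGI1 (ENSDARG00000003169) was not, with 1.998. On the lower side the corresponding genes were FNDC1 (ENSDARG00000002847) at -2.004 and TMEM102 (ENSDARG00000087162) at -1.991.

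**Figure D1:**
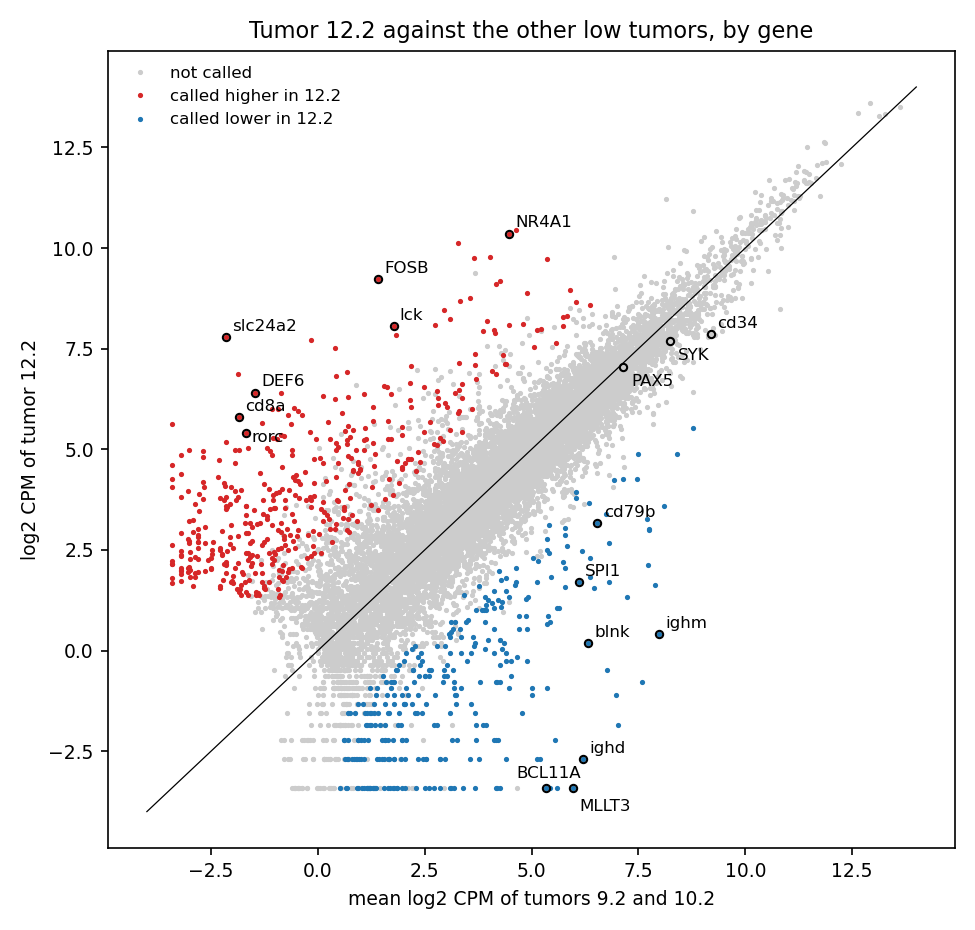
Each point is 1 of the 13465 genes, with the mean log2 CPM of tumors 9.2 and 10.2 on the x axis and the log2 CPM of tumor 12.2 on the y axis; red and blue mark the 425 higher and 312 lower genes and the line marks equal levels. T-cell genes such as cd8a, lck and rorc lie far above the line and ighm, ighd and BCL11A far below it, while PAX5 and SYK lie near it.

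The genes with the widest upward distance included T-cell genes and genes of other kinds. DEF6 (ENSDARG00000044524), a guanine exchange factor of T-cell receptor signalling, had 8 counts each in tumors 9.2 and 10.2 and 1377 in 12.2, a CPM ratio of 308 to the nearer tumor (95% exact interval 156 to 716, counting error only). The retinoid-related receptor gene rorc (ENSDARG00000087195) had 6, 7 and 681 counts, a ratio of 185 (89.2 to 461). The cytokine receptor gene il23r (ENSDARG00000052158) had 1, 0 and 465 counts, a ratio of 833 (149 to 32975). In all 3 genes tumors 9.2 and 10.2 were near zero.

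Others on that side have no lymphocyte role in their name. The ion exchanger gene slc24a2 (ENSDARG00000042988) had 5 and 3 counts in 9.2 and 10.2 and 3550 in 12.2, a ratio of 1272 (545 to 3920). SUSD4 (ENSDARG00000026335), which encodes a complement-regulating membrane protein, had 0, 0 and 306 counts, and cyld2 (ENSDARG00000089724) 0, 0 and 269. Against a limit of 3 counts per tumor these were at least 183-fold and 161-fold higher. The high tumors held cyld2 at log2 CPM 4.61 to 6.78, above the 4.06 of 12.2, and SUSD4 at no more than 0.96, below the 4.25 of 12.2. The collagen gene col18a1a, crocc2, INPP5J, slco2b1 and LRRN1 completed the 12 genes with the widest upward distance, beside cd8a.

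Coreceptor genes of T cells were present in tumor 12.2 and nearly absent from the other low tumors. The gene cd8a (ENSDARG00000044797), a chain of the coreceptor of cytotoxic T cells, stood at 0.209 and 0.208 CPM in libraries 9.2A and 9.2B, 0.237 and 0.0711 in 10.2A and 10.2B, and 57.7 and 48.1 in 12.2A and 12.2B, with 163, 227 and 331 CPM as the lowest, median and highest of the high tumors. Its partner cd8b (ENSDARG00000058682) stood at 0.348 and 0.554, 2.31 and 1.85, and 86.7 and 63.6 CPM, beside 194, 312 and 538 in the high tumors. Both libraries of 12.2 lay above all 4 of the other low libraries and below every high tumor. The same order held for cd4-1 (ENSDARG00000070668), the coreceptor gene of helper T cells, at 3.96 and 4.09, 2.08 and 1.85, and 103 and 76.6 CPM beside 222, 510 and 587. Transcripts of both coreceptors were thus measured in the same tumor, as in the high tumors.

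Signalling genes of the T-cell receptor followed in part. The kinase gene lck (ENSDARG00000102525), which acts first below the receptor, stood at 0.626 and 0.901 CPM in 9.2, 14.1 and 12.9 in 10.2, and 279 and 229 in 12.2, beside 490, 886 and 1206 in the high tumors. The adaptor gene lat (ENSDARG00000100334) was 106-fold (55.4 to 233) above the nearer low tumor. The zeta chain gene cd247 (ENSDARG00000100284) had log2 CPM of -1.74, 3.09 and 5.24 in 9.2, 10.2 and 12.2 and 6.25 to 7.56 in the high tumors. In lck and cd247 tumor 10.2 stood between 9.2 and 12.2.

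Of 28 matched T-cell receptor, coreceptor and signalling genes, 23 passed the minimum of 1 CPM. Of these, 11 (47.8%) were called higher and 1 (4.35%) lower in 12.2, beside 3.16% and 2.32% of all genes. Their median difference from the mean of 9.2 and 10.2 was 4 on the log2 scale, against 0.02 over all genes considered. Members such as cd8a and lat passed the minimum through 12.2 alone, so this median and the next counts hold for the genes that passed. Of the 23, 16 stood above both other low tumors and 7 below both, beside 4746 and 4694 of all 13465 genes considered. Against the high tumors, 17 stood below the lowest, 6 within their range and none above it. These places against the high tumors were not counted over all genes. The gene called lower was a FYN paralogue (ENSDARG00000011370), a Src-family kinase gene. It had 211 and 176 counts in 9.2 and 10.2 and 0 in 12.2, at least 30.9-fold lower against 3 counts.

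Some T-cell genes stood at similar or overlapping levels in tumors 10.2 and 12.2. The kinase gene ZAP70 (ENSDARG00000015752) stood at 158 and 149 CPM in 10.2 and 187 and 182 in 12.2, with 20.0 and 21.5 in 9.2, so both libraries of 12.2 were above those of 10.2. Among genes chosen after their values were seen, TCF7 (ENSDARG00000038672), a NOTCH-responsive T-lineage factor, stood at 50.8 and 57.8 CPM in 10.2 and 63.4 and 52.2 in 12.2, with 1.25 and 1.18 in 9.2. The zinc finger gene bcl11ba (ENSDARG00000062510) had 67.4 and 77.4, then 94.3 and 55.4, then 0.626 and 0.416 CPM in the same order. For TCF7 and bcl11ba the libraries of 10.2 and 12.2 overlapped, unlike those for cd8a, cd4-1, lck and lat.

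Regulators of the T lineage showed the same split. Of 31 matched, 16 passed the minimum, some of them, such as rorc and TOX, through 12.2 alone. Of these, 5 (31.2%) were called higher and 0 lower, beside 3.16% and 2.32% of all genes. They were rorc, the HMG-box gene TOX (ENSDARG00000032317), the chromatin organiser SATB1 (ENSDARG00000062621), GATA3 (ENSDARG00000016526) and ID2 (ENSDARG00000055283), and the call of ID2 was lost without library 12.2A. GATA3 stood at 3.06 and 2.63 CPM in 9.2, 1.07 and 0.853 in 10.2 and 25.8 and 14.1 in 12.2, beside 77.8, 228 and 472 in the high tumors. It was higher in both libraries of 12.2 than in the other low libraries and lower than in any high tumor. RUNX3 (ENSDARG00000052826), a factor of CD8 cells, was not called, with log2 CPM of -0.02, 5.50 and 6.99 in 9.2, 10.2 and 12.2 and at least 9.74 in the high tumors. TCF12 (ENSDARG00000004714), also not called, went the other way, at 272, 389 and 143 CPM, with at most 57.5 in the high tumors. Of the 16 regulators, 9 stood above both other low tumors and 3 below both, beside 4746 and 4694 of all 13465 genes considered. Without tumor 10.2 the list had 8 members called higher, but 1177 of all 13465 genes were then called higher too.

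**Figure D2:**
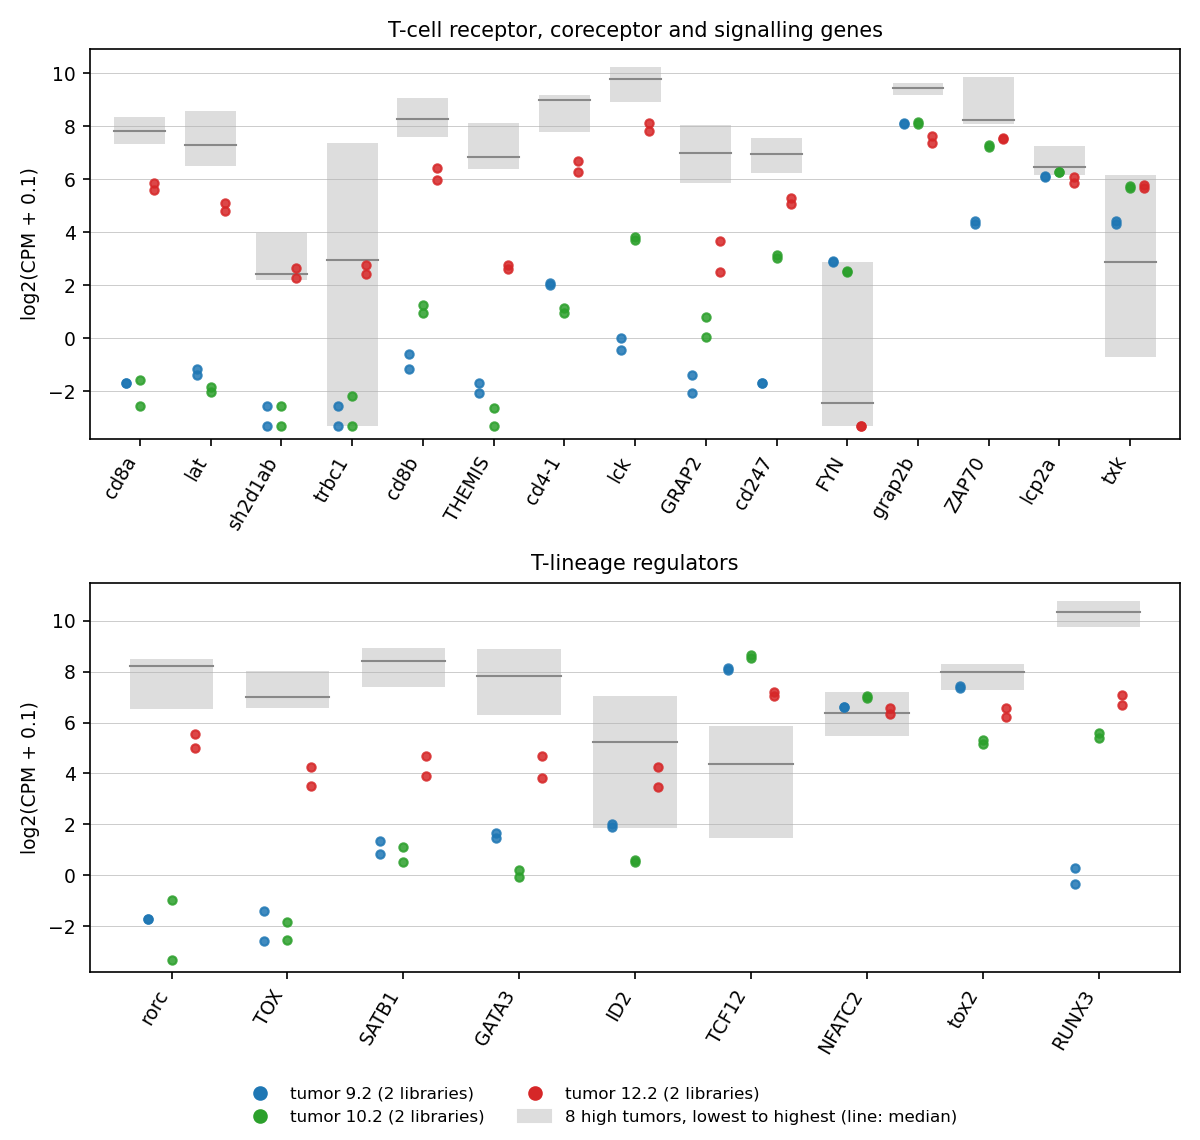
Each column is a gene of the T-cell receptor list (top) or the T-lineage regulator list (bottom), called genes first (10 of the 11 higher ones in the top panel) and then the highest members not called, with log2(CPM + 0.1) on the y axis; points are the 6 low libraries and grey boxes span the 8 high tumors with their median as a line. Red points of tumor 12.2 lie between the other low tumors and the grey boxes for cd8a, cd8b, cd4-1, lck, rorc and GATA3, and near the green points of 10.2 for ZAP70 and txk.

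On the B-cell side, the heavy-chain genes of the receptor were near zero in tumor 12.2. The heavy-chain gene ighm (ENSDARG00000096355) stood at 328 and 328 CPM in the libraries of 9.2, 194 and 196 in 10.2, and 1.29 and 1.07 in 12.2, beside 0.396, 1.77 and 3.49 in the high tumors. The other heavy-chain gene, ighd (ENSDARG00000096248), had 2732 and 1791 counts in 9.2 and 10.2 and 1 in 12.2, a ratio of 943 (169 to 37275). In both genes tumor 12.2 lay within the range of the high tumors. Reads of immunoglobulin genes can be split among near-identical segments, so their levels are uncertain.

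The signalling chains and adaptors of the receptor differed among themselves. The chain gene cd79b (ENSDARG00000104691) stood at 92.8 and 91.1 CPM in 9.2, 99.6 and 87.2 in 10.2 and 9.48 and 7.30 in 12.2, and no high tumor exceeded 0.257. Its partner cd79a (ENSDARG00000037473), not called, stood at 37.5 and 38.5, 22.8 and 23.9, and 10.5 and 12.5 CPM, with at most 2.34 in the high tumors. Both chains were thus lower in 12.2 than in the other low tumors and higher than in any high tumor. The adaptor gene blnk (ENSDARG00000042722), which links the receptor to downstream enzymes, stood at 133 and 141, 45.4 and 47.9, and 1.1 and 0.89 CPM, with 0.0431 to 2.54 in the high tumors. It was 44.6-fold lower than in tumor 10.2 (27.7 to 76.7). The tetraspanin gene cd37 (ENSDARG00000075515) was 6.58-fold lower (4.74 to 9.38) than in tumor 9.2.

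Other signalling genes of B cells differed in both directions. The kinase gene SYK (ENSDARG00000008186), which acts below the B-cell receptor, stood at 318 and 335, 297 and 250, and 200 and 210 CPM, beside 0.345 to 30.8 in the high tumors. It was thus lower in 12.2 than in the other low libraries by less than 4-fold. PLCG2 (ENSDARG00000068763), a phospholipase gene, had log2 CPM of 6.81, 6.15 and 6.53, and the surface gene cd40 had 5.46, 7.76 and 7.10. Both lay between tumors 9.2 and 10.2. Of 25 B-cell receptor and signalling genes considered, 6 (24.0%) were called lower and 1 (4%) higher, beside 2.32% and 3.16% of all genes, with a median difference of -0.41 against 0.02. The share called higher was thus near that of all genes. The sixth lower gene was the kinase gene BTK (ENSDARG00000004433) at log2 CPM 0.75, 2.41 and -1.32. The higher one was the phosphatase gene PTPN6 (ENSDARG00000089043), which stood at 132 and 142 CPM in 12.2, at most 32.4 in the other low libraries and 69.9 to 201 in the high tumors.

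Regulators of the B lineage ranged from levels like those of 9.2 and 10.2 to none. PAX5 (ENSDARG00000037383), the factor of B-cell commitment, stood at 110 and 115 CPM in 9.2, 180 and 178 in 10.2 and 125 and 137 in 12.2, and no high tumor exceeded 0.505. EBF1 (ENSDARG00000099849), which acts beside PAX5, was lower in 12.2, at 124 and 76.9 CPM, than in 9.2 (673 and 636) and 10.2 (210 and 210), and still above the highest high tumor at 11.6. The forkhead gene FOXO1 (ENSDARG00000061549) had log2 CPM of 8.85, 7.65 and 6.58, with at most 5.39 in the high tumors. Libraries of 12.2 were inside the range of the other low libraries for PAX5 and below it for EBF1 and FOXO1.

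Of 22 regulators considered, 2 (9.09%) were called lower in tumor 12.2 and 1 (4.55%) higher, beside 2.32% and 3.16% of all genes. Below both other low tumors stood 10 of the 22, beside 4694 of all 13465 genes considered. BCL11A (ENSDARG00000061352), a zinc finger gene of early B-cell development, had 956 and 1497 counts in 9.2 and 10.2 and 0 in 12.2, at least 178-fold lower against 3 counts. SPI1 (ENSDARG00000000767), which encodes the myeloid and B-cell factor PU.1, was 19.1-fold lower (14.5 to 25.8), with log2 CPM of 5.91, 6.29 and 1.70. High tumors held SPI1 at -1.43 to 4.03 and BCL11A at no more than -2.21, so tumor 12.2 stood at the level of the high tumors in SPI1 and had no count of BCL11A. The higher gene was the interferon regulatory factor gene irf4b (ENSDARG00000055374), at log2 CPM 3.55, 4.78 and 6.88. Its call was lost without library 12.2A. Without tumor 10.2 the list had 4 lower genes, but 666 of all 13465 genes were then called lower.

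**Figure D3:**
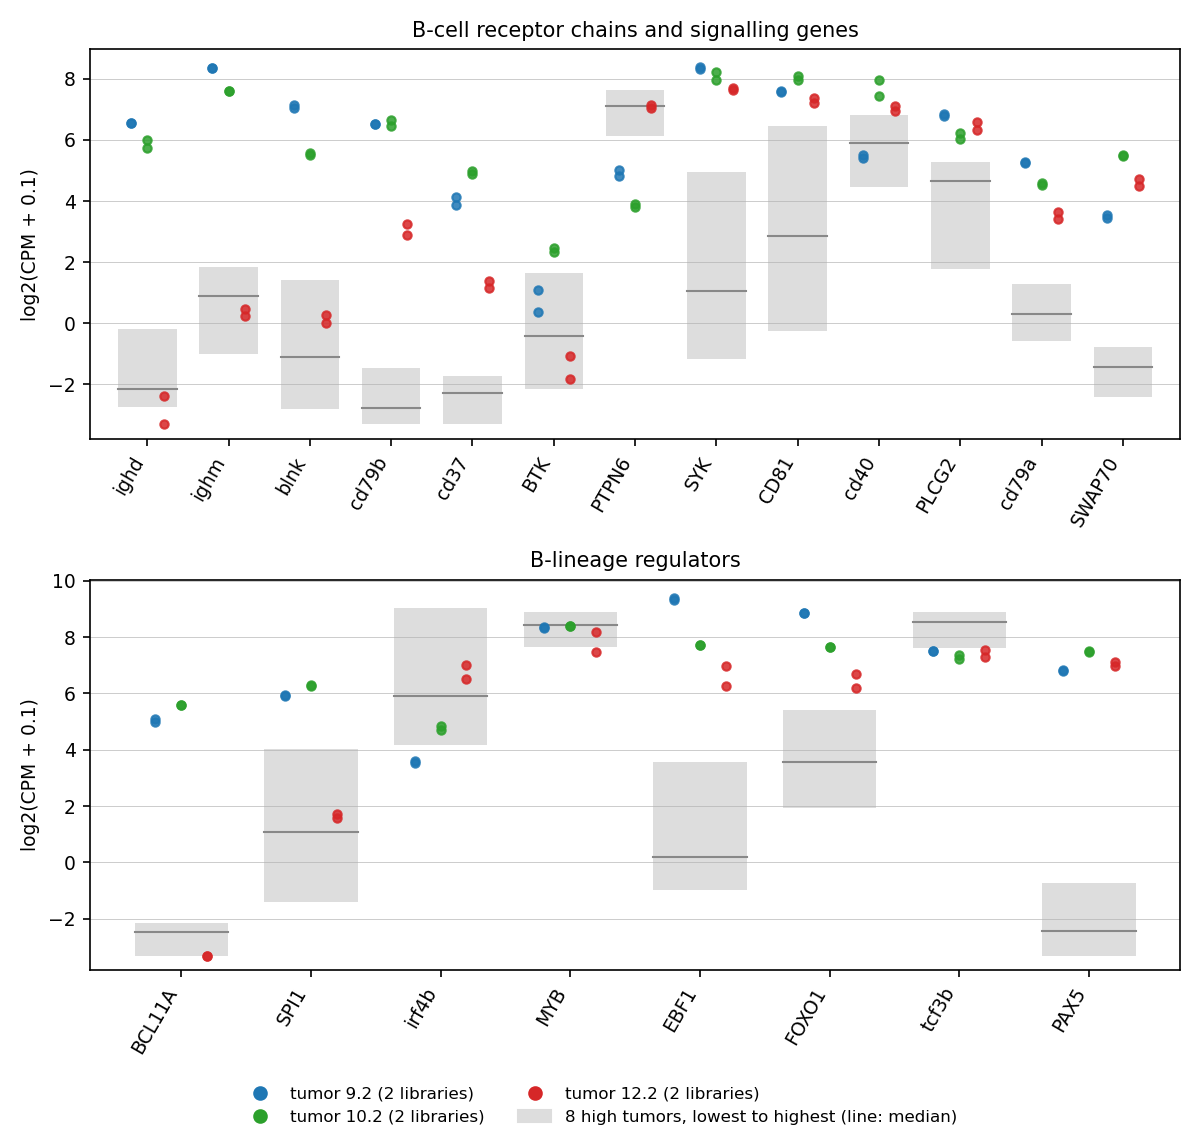
Columns are B-cell receptor and signalling genes (top) and B-lineage regulators (bottom), called genes first, with log2(CPM + 0.1) on the y axis; points are the 6 low libraries and grey boxes span the 8 high tumors with their median as a line. Tumor 12.2 (red) falls into the grey box for ighm and blnk, stays beside 9.2 and 10.2 for SYK and PAX5, and lies between for cd79b and EBF1.

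Some progenitor and recombination genes, chosen after their values were seen, stood above the high tumors in 12.2 as in 9.2 and 10.2. The progenitor surface gene cd34 (ENSDARG00000095268) stood at 578 and 581, 635 and 544, and 221 and 249 CPM, with at most 7.52 in the high tumors. The terminal transferase gene dntt (ENSDARG00000104792), which adds bases at receptor gene joints, stood at 137 and 130, 34.9 and 36.8, and 40.7 and 38.8 CPM, with 0 to 21.4 in the high tumors. The hematopoietic cofactor gene LMO2 (ENSDARG00000095019) stood at 26.4, 8.19 and 22.6 CPM in the summed libraries of 9.2, 10.2 and 12.2, with at most 2.87 in the high tumors. All 3 were above every high tumor in tumor 12.2, and cd34 was lower in 12.2 than in 9.2 and 10.2. Most members of both lists did not stand above the high tumors. Of 12 recombination genes in 12.2, 2 stood above their range, 7 within it and 3 below it. Of 14 stem and progenitor genes the counts were 4, 6 and 4. These places were not counted over all genes. Of 12 recombination genes 0 were called and of 14 stem and progenitor genes 1 was (7.14%). Beside 3.16% of all genes called higher and 2.32% lower, lists of this size would hold few calls in any case. The called gene was ZFPM1 (ENSDARG00000041572), a GATA cofactor gene that was 4.75-fold higher (3.48 to 6.56) and not called without library 12.2A.

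Tumor 12.2 was then placed on the contrast of the high tumors with tumors 9.2 and 10.2, whose genes were found without it. The high tumors differ from the pair both in T-cell and B-cell transcripts and in the self-renewal label, which 12.2 shares with the pair, and these cannot be told apart in the genes found. Between the 8 high tumors and tumors 9.2 and 10.2, the quasi-likelihood test of edgeR (p adjusted by Benjamini-Hochberg, at least 4-fold) called 471 of 16850 genes higher in the high tumors (2.8%) and 515 lower (3.06%). The pair has only 2 tumors, and DESeq2 called 1111 and 714. The place of tumor 12.2 is its CPM as a percent of the step between the means of both groups.

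On the 471 genes of the high tumors, the median place of 12.2 was 15.1% of the way from 9.2 and 10.2 to the high mean (quartiles 5.13% and 29.6%). It was 16.7% in library 12.2A and 9.35% in 12.2B. Of these genes, 290 (61.6%) lay between the ranges of both groups, 110 (23.4%) within the range of the high tumors and 43 (9.13%) within that of 9.2 and 10.2. A further 22 lay below tumors 9.2 and 10.2. These genes were chosen as low in 9.2 and 10.2, the tumors that 12.2 is also set against, so how many of them were called in 12.2 is not given as a result.

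Genes differed widely in this place. Under the coreceptors, cd8a stood at 24.4% of the step, cd8b at 23.9%, cd4-1 at 20.5% and lck at 29.7%. The regulators GATA3 at 7.75%, SATB1 at 6.21% and TOX at 10.3% stood lower, and rorc stood at 15.1%. In the T-cell receptor list, THEMIS (ENSDARG00000010619) stood at 4.31% and GRAP2 (ENSDARG00000006468) at 6.81%, so the places of both lists overlapped. At the other end, chosen after their values were seen, RBFOX3 (ENSDARG00000010083) had no count in any low tumor, and the integrin gene itgb7 (ENSDARG00000044318) stood at 0.372% and the glycosyltransferase gene B3GNT5 (ENSDARG00000018971) at 0.105%. Those 3 genes of the high tumors were at or near zero in tumor 12.2. Full levels were reached by the adaptor gene sla2b (ENSDARG00000020788) at 109% and by jak2a (ENSDARG00000104808), a cytokine-receptor kinase gene, at 146%.

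On the 515 genes of tumors 9.2 and 10.2, the median place of 12.2 was 24.0% of the way from the high mean to the mean of the pair, with wider quartiles of 2.53% and 63.1%. It was 24.1% in library 12.2A and 19.8% in 12.2B. There 189 genes (36.7%) lay between the ranges, 132 (25.6%) within that of the high tumors and 108 (21.0%) within that of 9.2 and 10.2. Of all 515, 191 stood under 10% and 85 over 90%, so many genes were near or beyond one end or the other. Among these, 80 stood at or below 0% and 61 over 110%. Tumors 9.2 and 10.2 also differ from each other, so a gene can fall at an end where 12.2 is near 1 of them. Of genes chosen after their values were seen, CASKIN1 (ENSDARG00000046107) had 337, 4.06 and 5 CPM in 9.2, 10.2 and 12.2 and a place of 2.61%. In the same order c4 (ENSDARG00000015065) had 19.8, 221 and 229 CPM and a place of 193%. An end is thus not always a difference from both tumors. With 10.2 left out, genes were found again (292 higher and 366 lower in the high tumors) and 9.2 alone was the reference. The medians of 12.2 were then 24.4% on the higher genes and 9.64% on the lower ones.

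Genes of the kept end included PAX5 at 90%, a CXCR4 paralogue (ENSDARG00000041959, a chemokine receptor gene of marrow homing) at 95% and the B-cell migration receptor gene GPR183 (ENSDARG00000010317) at 139%. Between the ends, SYK stood at 68.1%, EBF1 at 25%, FOXO1 at 24.8% and cd34 at 39.8%. The lost end included ighm at -0.226%, ighd at -0.310% and blnk at 0.269%, together with the transcription factor gene GFI1 (ENSDARG00000044457) at 0.784%. MLLT3 (ENSDARG00000006754), a chromatin reader gene of blood progenitors, had 4369 and 808 counts in 9.2 and 10.2 and 0 in 12.2, at least 142-fold lower against 3 counts. CDH15 (ENSDARG00000068191), a cadherin gene, had 754, 2725 and 0 counts, at least 140-fold lower. P3H2, valopa, zbtb32, ZDHHC2, sybu, chl1a and dab2 were the other genes with the widest downward distance, beside ighd, ighm and BCL11A.

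**Figure D4:**
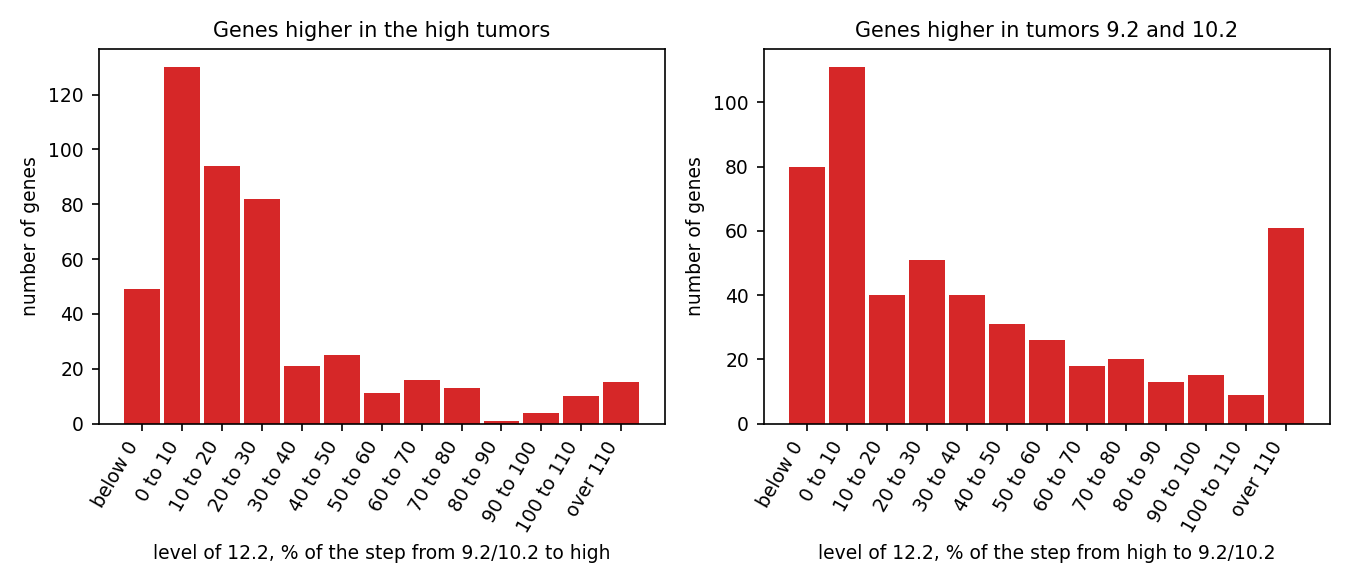
Bars count genes (y axis) by the level of tumor 12.2 as a percent of the step between the group means (x axis), for the 471 genes higher in the high tumors (left) and the 515 genes higher in tumors 9.2 and 10.2 (right). The left panel has most genes under 30%. The right panel has 191 genes under 10%, and its last bar, open upward, holds the 61 genes over 110%.

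Early response genes formed the list with the largest share of calls among the 20 lists. These genes, transcribed within minutes of a signal, include the AP-1 subunits of the FOS and JUN families and the NR4A and EGR factors. Of 29 considered, 21 (72.4%) were called higher in tumor 12.2 and 0 lower, beside 3.16% and 2.32% of all genes. All 29 that passed the minimum, of 32 matched, stood above both other low tumors, beside 4746 of all 13465 genes considered. The orphan receptor gene NR4A1 (ENSDARG00000000796) stood at 21.9 and 20.0, 25.3 and 21.5, and 1382 and 1124 CPM, beside 17.6, 914 and 3876 in the high tumors. FOSB (ENSDARG00000055751), an AP-1 subunit gene, had 174, 33 and 9709 counts, 100-fold above tumor 9.2 (86.0 to 117), and stood above the highest high tumor in level (log2 CPM 9.23 against 8.52).

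The mean log2 CPM over the 29 genes was 3.04 in tumor 9.2, 2.64 in 10.2 and 6.48 in 12.2. In the high tumors it ranged from 2.84 in tumor 7.2.1 to 6.79 in 14.1.1.1, with a median of 5.12. Tumor 12.2 was within this range, and high tumors themselves spread over most of it. Of the 21 called genes, 14 lay within the range of the high tumors, 6 above it and 1 below it, places that were not counted over all genes. Other members called included NR4A3, FOSL2, EGR3, JUND, BTG2 and DUSP2, while ATF3 (ENSDARG00000007823, a stress factor gene) at log2 CPM 3.58 was not called.

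Cytokine receptors, homing receptors and NOTCH genes gave smaller shares of calls than the early response and T-cell lists, and larger ones than all genes. The receptor chain gene il7r (ENSDARG00000078970), which thymocytes need to survive, had 1 and 3 counts in 9.2 and 10.2 and 218 in 12.2, a ratio of 138 (46.6 to 674), with the log2 CPM of 3.76 just under the lowest high tumor at 3.95. It was 1 of 5 of 33 cytokine receptor and JAK-STAT genes called higher (15.2%, beside 3.16% of all genes), with il2rb, jak2a, il2rgb and CISH. A CCR9 paralogue (ENSDARG00000099738), a thymus-homing receptor gene, stood at 0.626 and 0.831, 5.58 and 5.33, and 40.1 and 29.6 CPM, beside 174 to 314 in the high tumors. Another CCR9 paralogue (ENSDARG00000055186) was not called. It stood at 81.2, 136 and 317 CPM in 9.2, 10.2 and 12.2, beside 302 to 1107 in the high tumors. Of 13 homing genes the first CCR9 paralogue and S1PR4 were called higher (15.4%) and the integrin gene ITGA4 (ENSDARG00000103056) lower (7.69%), 4.48-fold (3.9 to 5.17).

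Of 24 NOTCH pathway genes, 4 (16.7%) were called higher and 0 lower, beside 3.16% and 2.32% of all genes, with a median difference of 0.02, as over all genes. They were the ligand genes jag1b and jag2b, NOTCH3 and a NOTCH1 paralogue (ENSDARG00000052094). This NOTCH1 paralogue stood at 0.765 and 0.624, 8.24 and 6.90, and 55.8 and 41.7 CPM, beside 0.565, 2.58 and 98.4 in the high tumors. The other NOTCH1 paralogue (ENSDARG00000103554) stood at 169 and 169, 139 and 149, and 155 and 149 CPM, and no high tumor exceeded 58.5. Tumor 12.2 was thus within the spread of the high tumors for the first and at the level of the low tumors for the second. The calls of jag2b and NOTCH3 were lost without library 12.2A.

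Genes that set tumor 12.2 apart from all 10 other tumors were counted separately. Considered were 13998 genes with a mean of at least 1 CPM over the 11 tumors. Of these, 138 (0.986%) stood at least 2-fold above the highest other tumor and 166 (1.19%) at least 2-fold below the lowest. The 2-fold distance was taken on summed libraries, and both libraries of 12.2 had to lie beyond every other library by any amount. By the same rule the other tumors had 20 to 442 higher and 18 to 504 lower genes, with the most in tumor 8.3. Without library 12.2A the lower count of 12.2 was 422, and without 12.2B it was 196.

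The upward genes with the widest distance were of no single kind. DDR1 (ENSDARG00000078523), a collagen receptor kinase gene, stood at 0.139 and 0.554, 0.474 and 0.569, and 37.1 and 37.9 CPM, and no high tumor exceeded 0.574. The transporter gene slco2b1 (ENSDARG00000054609) stood at no more than 0.277 CPM in the other low libraries, at 38.4 and 29.9 in 12.2 and at no more than 1.39 in the high tumors. The others were the proteoglycan gene prg4a, the dopamine receptor gene drd4a, the collagen gene col11a1b and the kinase gene PSKH1. By the rule that picked them, both libraries of 12.2 lay above every other tumor in each of the 6.

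Downward, IGF1R (ENSDARG00000027423), the receptor gene of insulin-like growth factors, stood at 111 and 113, 9.37 and 9.24, and 0.460 and 0.178 CPM, beside 2.77, 9.27 and 17.7 in the high tumors. The phosphatase-family gene ptpn23b (ENSDARG00000098689) had 169 and 370 counts in 9.2 and 10.2 and 4 in 12.2, with log2 CPM of -1.56 beside 3.29 to 5.82 in the high tumors. The kinase genes wnk3 and ttbk1a, the corepressor gene lcor and the adaptor gene AP1G2 had distances of the same kind.

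**Figure D5:**
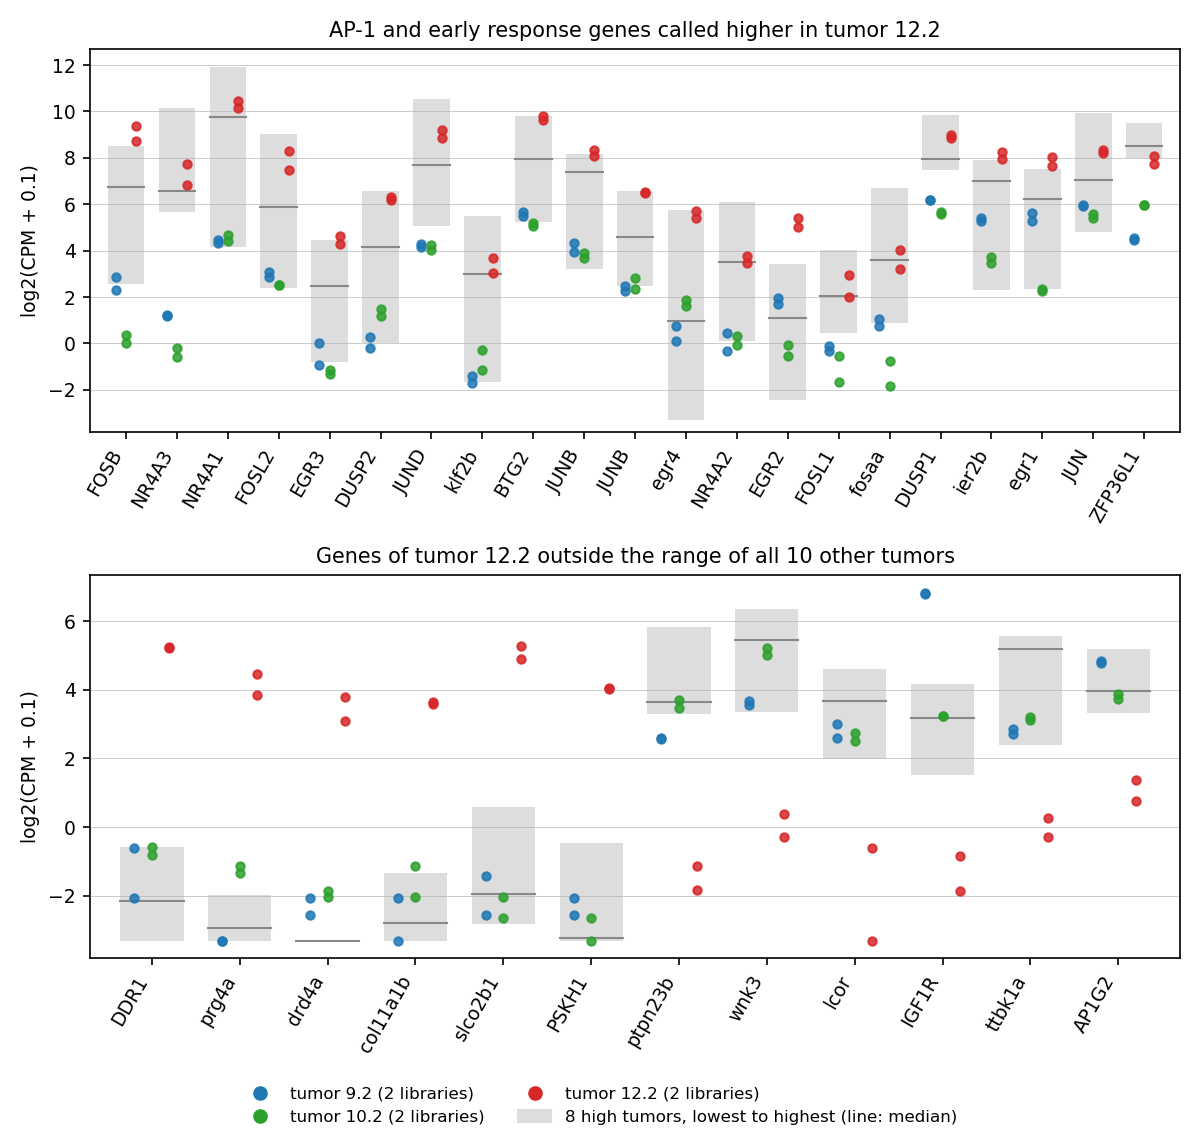
Columns are the 21 early response genes called higher in tumor 12.2 (top) and the 12 genes with the widest distance of 12.2 from all 10 other tumors (bottom), with log2(CPM + 0.1) on the y axis; points are the 6 low libraries and grey boxes span the 8 high tumors with their median as a line. In the top panel most red points lie inside the grey boxes, and in the bottom panel all lie outside them, as the rule that picked these genes requires.

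Markers of other cell types were also measured. Summed levels in tumors 9.2, 10.2 and 12.2 were 5.86, 6.47 and 6.48 CPM for neutrophil markers and 3.65, 17.9 and 8.52 for macrophage markers, of which 5 of 11 were at 0 in 12.2. Erythroid markers summed to 6.24, 16.9 and 29.4 CPM, beside 1.05 to 44.1 (median 5.65) in the high tumors, and none of the 5 was at 0 in 12.2. The globin gene hbaa1 (ENSDARG00000097011) was called, with 17, 10 and 249 counts, and so was an FN1 paralogue (ENSDARG00000019815), a fibronectin gene, 10-fold above tumor 10.2 (8.15 to 12.4). They were 2 of 13 erythroid and thrombocyte genes considered (15.4%), beside 3.16% of all genes called higher. The mean log2 CPM of the 13 was 3.07, 3.29 and 4.28 in 9.2, 10.2 and 12.2 and at most 3.43 in the high tumors. The part of such cells in other results was not tested. Natural killer markers, of which 3 of 5 were at 0 in 12.2, summed to no more than 0.455 CPM in the low tumors. Thrombocyte markers summed to 0.586, 0.130 and 0.741 CPM, with at most 0.717 in the high tumors. Kidney and endothelium markers summed to 22.7, 2.60 and 5.18 CPM, with at most 15.6 in the high tumors, and fibroblast and muscle markers to at most 1.96.

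Of 46 cell cycle genes, 26 survival and death genes and 24 interferon response genes, 0 were called in tumor 12.2. With 3.16% and 2.32% of all genes called, few calls would fall in lists of this size, and the counts set no list apart.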

How the data were processed

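RNA-seq of 20 libraries from 11 tumors was used. The authors deposited whole-number read counts per gene, made with STAR, Picard and featureCounts on GRCz10 per the submitters' processing notes. The sources used here give neither their versions nor whether strand was used, so genes with an antisense partner and near-identical paralogues are uncertain. Symbols were found for 26269 of 32105 IDs (81.82%), and 2.79% of counts lay in genes without one. Counts of a tumor's libraries were summed and scaled by TMM in edgeR 4.0.16 (R 4.3.3, limma 3.58.1). Figures used matplotlib 3.10.9.

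The 20 gene lists had 624 entries, of which 68 were not matched. Members and lists were chosen with earlier results of these data known. Genes named by rule were, per direction, the 12 with the widest distance and the 6 beyond all 10 other tumors (at least 10 CPM on the higher side), up to 5 called genes per list and up to 4 of the highest members not called of the lineage lists. One called member of the T-cell receptor list is counted but not reported here by name. Other genes named were chosen after their values were seen, among them cd8b, cd4-1, lck, cd247, cd79a, PAX5, cd34, dntt, LMO2, CXCR4, GPR183, GFI1, sla2b, cd74a and b2m.

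Genes of the high tumors and of tumors 9.2 and 10.2 came from edgeR's quasi-likelihood test on tumors, two-sided, with an adjusted p threshold of 0.05 and 4-fold. Its p-values set the difference between the groups against the spread between tumors within them, and most of these tumors are high. Pipelines were tested on simulated data. Ratios carry 95% exact intervals that cover counting error only, and a count of 0 was read against 3 counts. Alternatives were other scalings, filters, folds, prior counts, DESeq2 1.42.0 and leaving out libraries or tumors. Library numbers did not pair tumors: over 36 tumor pairs the correlation of deviations ran from -0.39 to 0.35, with 9 above 0.1.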

Additional observations from a re-analysis of the deposited data

Results flagged for a closer look

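In the 8 high tumors, 93 sets of values were examined for a tumor far from the others on the log2 CPM scale. Each set was a gene named by rule or the mean of a T-cell, B-cell or early response list. Such a tumor was found in 8 sets, all of them genes. Chance gives such a value in about 1 of 20 groups. Tumor 8.3 stood apart in rorc (6.53, nearest 7.76), sybu (-2.43, all others without a count), ptpn23b (5.82, nearest 4.31) and ZAP70 (9.87, nearest 8.44). Tumor 13.1.1 stood apart in col18a1a (-1.40, nearest 5.66) and ttbk1a (2.38, nearest 4.49). Tumor 14.1.1.1 stood apart in irf4b (9.04, nearest 6.31), and tumor 2.1 in jak2a (7.51, nearest 6.98). The low group of 3 tumors was too small for this look. In all 8 genes these values widen the range that tumor 12.2 is set against. For jak2a, tumor 12.2 (7.37) lay within that range only through tumor 2.1.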

How the results depend on the processing

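Of the 72 called genes named by rule, none changed direction. Higher calls outnumbered lower ones in tumor 12.2 (425 against 312), but not without 12.2A (360 against 423). By DESeq2 genes higher in the high tumors (1111) outnumbered lower ones (714), unlike 471 against 515. The 425 higher and 312 lower genes of tumor 12.2 became 641 higher with no filter, 215 and 173 with a minimum of 5 CPM, 960 and 870 at 2-fold, and 244 and 154 at 8-fold. They became 569 lower without tumor 9.2, and 1177 and 666 without 10.2. Leaving out single libraries gave 360 to 440 higher and 301 to 423 lower. Without tumor 9.2, B-cell receptor genes called higher were 2 and T-cell receptor genes called lower 2, beside 595 higher and 569 lower of all 13465 genes. Without 10.2 these list counts were 4 and 3, with 4 B-lineage regulators lower and 8 T-lineage regulators higher. Over all genes 1177 were then higher and 666 lower, so these list counts rose with those of all genes. Genes outside all 10 others became 39 and 23 at 4-fold, 53 and 109 with 5 CPM, and 118 to 125 and 196 to 422 with a library of 12.2 left out. The 471 genes of the high tumors became 1111 by DESeq2, 1302 with libraries as units and 1231 with libraries and a replicate block. Leaving out each tumor gave 235 (without 9.2) to 522, with 292 without 10.2. The place on genes of 9.2 and 10.2 was 29.0% by DESeq2 genes and 20.3% by 8-fold genes, and without 10.2 the places were 24.4% (genes of the high tumors) and 9.64%, in the opposite order to 15.1% and 24.0%. Single libraries of 12.2 gave 9.35% to 16.7% and 19.8% to 24.1%. The causes were not tested. With a replicate block of same-numbered libraries, replicate 1 gave 433 higher and 296 lower, and replicate 2 gave 373 and 405. Of the 72 genes, 53 passed at 8-fold, 57 with 5 CPM and 65 without 12.2A, which dropped MYC, jag2b, ZFPM1, NOTCH3, il2rgb, ID2 and irf4b. Tumor 12.2 is 1 tumor with the lowest depth of the low tumors.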

Other observations

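Antigen presentation genes were not called. In tumor 12.2, 17 of 24 stood above both other low tumors, beside 4746 of all 13465 genes considered. Above every high tumor stood 13 of 24, a count that was not made over all genes. The class II chaperone gene cd74a had log2 CPM of 6.98, 9.38 and 10.02 in tumors 9.2, 10.2 and 12.2, with 2.88 to 7.55 in the high tumors. The class I light chain gene b2m had 10.06, 10.59 and 10.95, with 8.39 to 10.47 in the high tumors. Both genes rank the low tumors in the same order, with 9.2 the lowest.

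Interferon response genes had mean log2 CPM of 2.22 in tumor 9.2, 5.76 in 10.2 and 4.75 in 12.2, with 1.13 to 4.4 in the high tumors. Tumor 12.2 thus lay between the other low tumors and, like 10.2, above every high tumor. Of 14 MYC family genes 1 was called higher (7.14%), beside 3.16% of all genes, and lists of this size hold few calls in any case. It was MYC (ENSDARG00000007241) at log2 CPM 0.66, 0.81 and 2.95, and it was not called without library 12.2A. Among 23 neutrophil and macrophage genes 1 was called higher (4.35%), near the share of all genes. It was CEBPB, a myeloid factor gene, at 5.66, 5.98 and 8.30.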
